A study of Mus musculus with 12 samples.

Results

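The genes described here are 34 components of the endoplasmic reticulum (ER) folding machinery, the unfolded protein response and ER-associated degradation (ERAD), chosen by name for these functions among the 41325 genes counted. RNA sequencing was done on 12 libraries of IMG cells, a mouse microglial line that has been immortalised; microglia are brain macrophages. These were wild type, of the C57Bl6/J strain and all at 1 passage, and they were treated for 8 h with oAb, with fAb or with the scramble control, with 4 libraries per group. Both oAb and fAb contain amyloid beta, the peptide of Alzheimer plaques. The series description pairs oAb with the fibrillar form and fAb with the oligomeric form, the opposite of what the abbreviations would stand for, so the names oAb and fAb are kept here without deciding between them. IMG is 1 cell line, and the labels do not state whether replicate libraries were separate cultures; p-values here reflect only how far these libraries spread, which may be technical.

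Proteins bound for the cell surface, the lysosome or secretion enter the ER through a membrane channel, the translocon, and fold there with the help of chaperones, disulphide isomerases and sugar-binding lectins. When unfolded protein accumulates, the membrane sensors IRE1 (gene Ern1), ATF6 and PERK (gene Eif2ak3) start the unfolded protein response. IRE1 splices the Xbp1 mRNA, cleaved ATF6 enters the nucleus, and PERK slows translation while the factor ATF4 is made. ERAD sends proteins that do not fold back to the cytosol for breakdown by the proteasome. In microglia this machinery handles cytokines, receptors and lysosomal enzymes.

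ATF6 with the factor NF-Y, and also XBP1, are known to bind the ER stress response element (ERSE), which reads CCAAT, any 9 bases and CCACG, and a shorter form, ERSE-II, which reads ATTGG, any 1 base and CCACG. These letters were searched on both strands in RefSeq promoter windows of build GRCm38.p6, each reaching from 250 bases before to 50 bases after a start site. Windows were at hand for 28 of the 34 genes, all but Atf6, Derl1, Hyou1, Manf, Sec61a1 and Ssr2. ERSE was found in 9 of these 28 (32.1%), against 37 of all 27025 genes with a window (0.137%). ERSE-II was found in Herpud1 and Dnajb11 (7.14%), against 12 of all genes (0.0444%). The matches before a start site are shown because these genes are the ones in which the known element can be read directly. Each line gives the gene, its position and strand, and the sequence 5′ to 3′ along the gene, with the match in capitals. Where a match lies on the other strand, the capitals begin with CGTGG.
Hspa5, chr2:34772015-34772053, + strand: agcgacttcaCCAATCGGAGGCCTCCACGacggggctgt
Hsp90b1, chr10:86705523-86705666, - strand: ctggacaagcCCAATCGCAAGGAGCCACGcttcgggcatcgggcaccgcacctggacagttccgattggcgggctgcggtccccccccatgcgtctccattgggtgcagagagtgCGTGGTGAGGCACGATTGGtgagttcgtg
Dnajc3, chr14:118937817-118937855, + strand: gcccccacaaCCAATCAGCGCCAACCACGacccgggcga
Creld2, chr15:88819510-88819548, + strand: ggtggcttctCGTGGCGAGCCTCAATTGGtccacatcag
Pdia6, chr12:17266481-17266519, + strand: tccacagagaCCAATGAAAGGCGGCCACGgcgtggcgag
Calr, chr8:84847065-84847103, - strand: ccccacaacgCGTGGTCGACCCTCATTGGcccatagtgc
Canx, chr11:50325790-50325828, - strand: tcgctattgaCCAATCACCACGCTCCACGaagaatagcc
Syvn1, chr19:6046522-6046560, + strand: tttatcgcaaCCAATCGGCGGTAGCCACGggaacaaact
Derl3, chr10:75893232-75893270, + strand: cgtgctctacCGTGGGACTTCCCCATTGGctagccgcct
Herpud1, chr8:94386367-94386397, + strand: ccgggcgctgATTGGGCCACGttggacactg
The capitals are ERSE in every line but that of Herpud1, which shows ERSE-II. Hsp90b1 holds ERSE at 2 places, 1 on each strand, and the match in Dnajb11 lies after the start site, at bases 8 to 18. The binding sequence of XBP1 known as UPRE, TGACGTGG, was in 0 of the 28 genes and in 0.714% of all genes. CARE, TGATGNAAT, the element that ATF4 is known to bind, was in 0 of the 28 and in 1.08% of all genes. Which motifs to search was settled with the expression results known, and a match describes letters in a window and not binding. The shares of all genes include the genes described here. Those genes were chosen by name for ER functions, and ERSE and ERSE-II are known elements of the ER stress response. Their higher share here is therefore not an independent result.

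Libraries held 13638721 to 18124419 counts. The 34 genes took 1.30% to 1.33% of counts in oAb libraries and 1.33% to 1.43% in fAb libraries, against 0.820% to 0.847% in scramble libraries. Scramble library 3 stood apart from the others of its group: ribosomal protein genes took 10.6% of its counts, against 6.39% to 6.75% in the other 3. The libraries also fell into 2 sets by how counts were divided between Timm23 and its near copy Gm10273. Over 50% of the pair lay at Timm23 in oAb libraries 1 and 2 and in 3 scramble libraries (2, 3 and 4), called the Timm23 set. The share was lower in oAb libraries 3 and 4, in the whole fAb group and in scramble library 1, called the Gm10273 set. Genes among the 34 whose call changed without scramble library 3, or when the sets were taken into account, are named below. Of 15 microglia and macrophage markers none was at 0 throughout, although Tmem119, a marker of resting microglia, had at most 5 counts in any library. C1qa had at most 2 counts in a treated library. The summed level of the 15 was 3764 to 4179 CPM in oAb, 3669 to 4021 CPM in fAb and 5569 to 6358 CPM in scramble libraries. The 15 did not all move together. Laptm5 had 6470 to 9632 counts in oAb and 7549 to 9090 in fAb, against 16764 to 20480 in scramble libraries. Cx3cr1 had 1115 to 1663 counts in oAb and 1403 to 1573 in fAb, against 774 to 1093 in scramble libraries. Among markers of other cells, Rbfox3, Snap25 and Syt1 (3 of 5 for neurons), Mog and Olig2 (2 of 5, oligodendrocytes), Aqp4 (1 of 5, astrocytes), Cldn5 (1 of 5, endothelium) and Pdgfra (1 of 5, fibroblasts) were at 0 in every library. The summed neuronal, oligodendrocyte and endothelial markers lay at 9.95 to 12.3, 40.9 to 44.9 and 16.6 to 23.2 CPM in oAb libraries, at 9.37 to 12.1, 45.3 to 48.2 and 19.7 to 21.5 CPM in fAb libraries, and at 0.953 to 4.11, 92.2 to 141 and 1.61 to 4.11 CPM in scramble libraries. Each of these sums was mostly 1 gene. It was Map2 for neurons, where the other 4 markers had at most 4 counts in any library, Mbp for oligodendrocytes (at most 8 counts in each of the other 4) and Flt1 for endothelium (at most 10 counts in each of the other 4). Astrocyte markers summed to 0.944 to 1.78 CPM in oAb, 1.29 to 1.93 in fAb and 0.634 to 0.807 in scramble libraries. Fibroblast markers summed to 2.40 to 3.84 CPM in oAb, 1.76 to 2.73 in fAb and 0 to 0.184 in scramble libraries. The fibroblast sum in treated libraries was mostly Dcn, with 31 to 50 counts there and at most 1 in a scramble library. The part of these markers in the results below was not tested.

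Most of the machinery was higher with either preparation. Of 33 genes that could be tested, 26 rose and 0 fell in oAb against scramble, and 28 rose and 0 fell in fAb against scramble. Among all genes tested, 52.2% passed with oAb (25.2% rose and 27.0% fell) and 56.3% with fAb (27.6% rose and 28.8% fell). The genes that rose were the chaperones Hspa5, Hsp90b1 and Hyou1 and most of their partners, all the isomerases, both lectins and 4 of 5 translocon genes. The median log2 fold change with oAb was lowest in the sensors, at 0.13, and highest for the pair Manf and Creld2, at 1.58; with fAb it was 0.18 in the sensors and 1.48 for that pair. Derl3, an ERAD membrane protein, had 1 to 10 counts per library and was not tested. All tests were edgeR's quasi-likelihood test with Benjamini-Hochberg adjustment over all genes and a threshold of 0.05. The comparisons with oAb and with fAb share their 4 scramble libraries, so their values are given side by side and are not independent.

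The median log2 fold change of the 33 genes was 0.74 with oAb and 0.75 with fAb, where the median over all genes was -0.07 with oAb and -0.04 with fAb. In 13 of the 33 genes the level was at least 2-fold higher with oAb and in 15 with fAb, against 10.5% of all genes tested with oAb and 10.9% with fAb. All oAb libraries lay above all scramble libraries in 27 of the 33 genes, against 26.2% of all genes, and all fAb libraries did in 28, against 27.4%. In 0 of the 33 did all oAb or all fAb libraries lie below all scramble libraries, which 25.0% of all genes showed with oAb and 28.0% with fAb. In bulk RNA, more cells with a transcript and more of it per cell cannot be told apart.

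**Figure D1:**
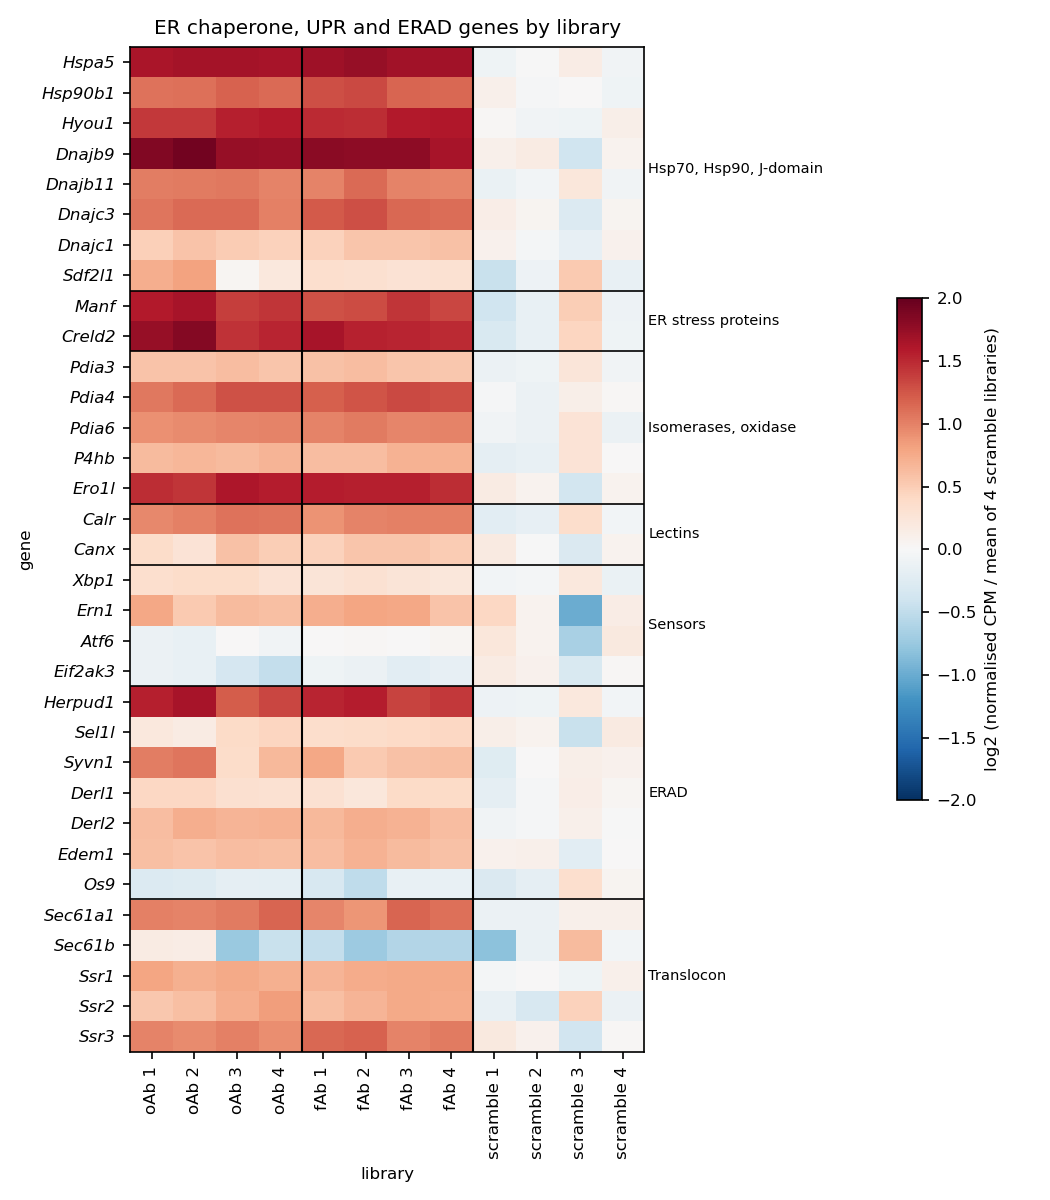
Normalised CPM of each tested gene (down the page, grouped by role) in each library (across), as log2 of the ratio to the mean of the 4 scramble libraries; red is higher and blue lower. The oAb and fAb columns are red in nearly every line, with Eif2ak3, Atf6, Os9 and Sec61b as the pale or blue lines, and scramble 3 differs from the other scramble columns in many lines.

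Luminal chaperones of the Hsp70 and Hsp90 families and their J-domain partners rose in 7 of 8 genes with oAb and in the same number with fAb. Hspa5 (identifier ENSMUSG00000026864, chr2:34771970-34777547, + strand) encodes BiP, the main Hsp70 of the ER, which also holds the sensors inactive. It had 2009, 2055, 2046 and 2029 normalised CPM in oAb libraries and 2088, 2159, 2074 and 2061 in fAb libraries, against 610.0, 640.4, 713 and 617 in scramble libraries. Neither treated group overlapped scramble. The coefficient of variation was 1.00% in oAb, 2.09% in fAb and 7.31% in scramble. Much of the spread in scramble came from library 3, at 713, while scramble libraries 1, 2 and 4 lay at 610.0 to 640.4. The log2 fold change was 1.66 ± 0.10 (SE) with oAb (edgeR adjusted p = 6.26e-07), and 93.9% of tested genes had a lower value. With fAb it was 1.74 ± 0.09 (edgeR adjusted p = 4.69e-07).

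Hyou1, a large Hsp70 relative that serves as a nucleotide exchange factor for BiP, had 492, 495, 543 and 559 normalised CPM in oAb and 521, 518, 556 and 563 in fAb, against 188, 177, 175 and 202 in scramble libraries. The groups did not overlap, and its log2 fold change was 1.5 ± 0.09 with oAb (edgeR adjusted p = 1.18e-06) and 1.58 ± 0.08 with fAb (3.99e-07). Dnajb9, a J-domain protein that brings BiP to IRE1, was among the genes with the largest rises in both comparisons. It had 47.2, 49.7, 43.8 and 43.4 normalised CPM in oAb and 45.5, 45.1, 45.1 and 40.9 in fAb, against 13.9, 14.6, 9.92 and 13.7 in scramble libraries, which was 3.53-fold higher with oAb and 3.47-fold with fAb. Hsp90b1, which encodes the ER Hsp90 known as GRP94, was 2.18-fold higher with oAb and 2.41-fold with fAb. Dnajc3, a J-domain cochaperone of BiP, rose 2.13-fold with oAb and 2.36-fold with fAb. Dnajb11 rose 2.04-fold with oAb and 2.09-fold with fAb, and Dnajc1, a membrane-bound J protein, 1.42-fold with oAb and 1.49-fold with fAb.

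Sdf2l1, a luminal partner of Dnajb11, did not pass. It had 104, 109.7, 65.1 and 73.3 normalised CPM in oAb and 80.1, 78.8, 76.9 and 77.9 in fAb, against 46.1, 59.1, 90.5 and 56.6 in scramble libraries. Scramble library 3 lay above every fAb library and above 2 of the 4 oAb libraries, and the other 3 scramble libraries lay below all treated ones. The log2 fold change was 0.49 ± 0.24 with oAb (edgeR adjusted p = 0.114) and 0.35 ± 0.19 with fAb (0.141). Without scramble library 3 it was 0.71 with oAb (edgeR adjusted p = 0.0206) and 0.58 with fAb (0.00022). With that library kept and the library set as a term, it also passed, at 0.62 with oAb (edgeR adjusted p = 0.0114) and 0.82 with fAb (0.0371). Within the Timm23 set it did not pass with oAb (0.65, edgeR adjusted p = 0.0798).

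Manf and Creld2, small proteins of the ER lumen that are secreted under ER stress, both rose with either preparation. Manf had 253, 263, 219 and 227 normalised CPM in oAb and 205, 207, 227 and 212 in fAb, against 63.9, 76.3, 118 and 78.5 in scramble libraries. Its highest scramble library was library 3, which still lay far below every treated library, and the log2 fold change was 1.52 ± 0.18 with oAb (edgeR adjusted p = 9.02e-05) and 1.37 ± 0.18 with fAb (0.000165). Creld2 had 96.8, 103, 78.4 and 83.4 normalised CPM in oAb and 90.4, 84.2, 83.3 and 80.9 in fAb, against 23.4, 26.0, 38.8 and 27.3 in scramble libraries. It was 3.14-fold higher with oAb and 3.01-fold with fAb, and its groups did not overlap.

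All 5 genes of disulphide bond formation rose with both preparations. Ero1l encodes the oxidase ERO1 alpha, which reoxidises the isomerases. It had 224, 217, 246 and 238 normalised CPM in oAb and 238, 237, 238 and 225 in fAb, against 90.5, 84.8, 62.5 and 84.7 in scramble libraries, with a log2 fold change of 1.52 ± 0.12 with oAb (edgeR adjusted p = 7.22e-06) and 1.58 ± 0.12 with fAb (4.03e-06). The isomerase Pdia4 had 257, 270.1, 298 and 300.4 normalised CPM in oAb and 285, 297, 309.7 and 303 in fAb, against 121, 114, 135 and 125 in scramble libraries, a rise of 2.28-fold with oAb and 2.48-fold with fAb. Neither gene overlapped between treated and scramble libraries. Pdia6 rose 1.94-fold with oAb and 2.05-fold with fAb. The abundant isomerases P4hb (1.58-fold with oAb and 1.61-fold with fAb) and Pdia3, the partner of the lectin chaperones (1.5-fold with oAb and 1.52-fold with fAb), had smaller rises.

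The lectin chaperones calreticulin (Calr), which is luminal, and calnexin (Canx), which is anchored in the membrane, bind newly made glycoproteins. Calr had 1780.5, 1838, 1944 and 1926 normalised CPM in oAb and 1711, 1819, 1836 and 1827 in fAb, against 792, 816, 1169 and 877 in scramble libraries. It rose 2.05-fold with oAb and 2.02-fold with fAb, with no overlap. Canx had 841, 794, 982 and 919 normalised CPM in oAb and 899.9, 963, 965 and 930.5 in fAb, against 740.0, 654, 534 and 691 in scramble libraries. Its groups did not overlap either, but the rise was smaller, with a log2 fold change of 0.44 ± 0.13 with oAb (edgeR adjusted p = 0.0158) and 0.56 ± 0.11 with fAb (0.00186). The call with oAb was lost with upper quartile scaling (0.27, edgeR adjusted p = 0.0926), within the Timm23 set (0.39, 0.129) and without oAb library 3 (0.38, 0.0511). That with fAb was lost with the library set as a term (0.40, edgeR adjusted p = 0.104).

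**Figure D2:**
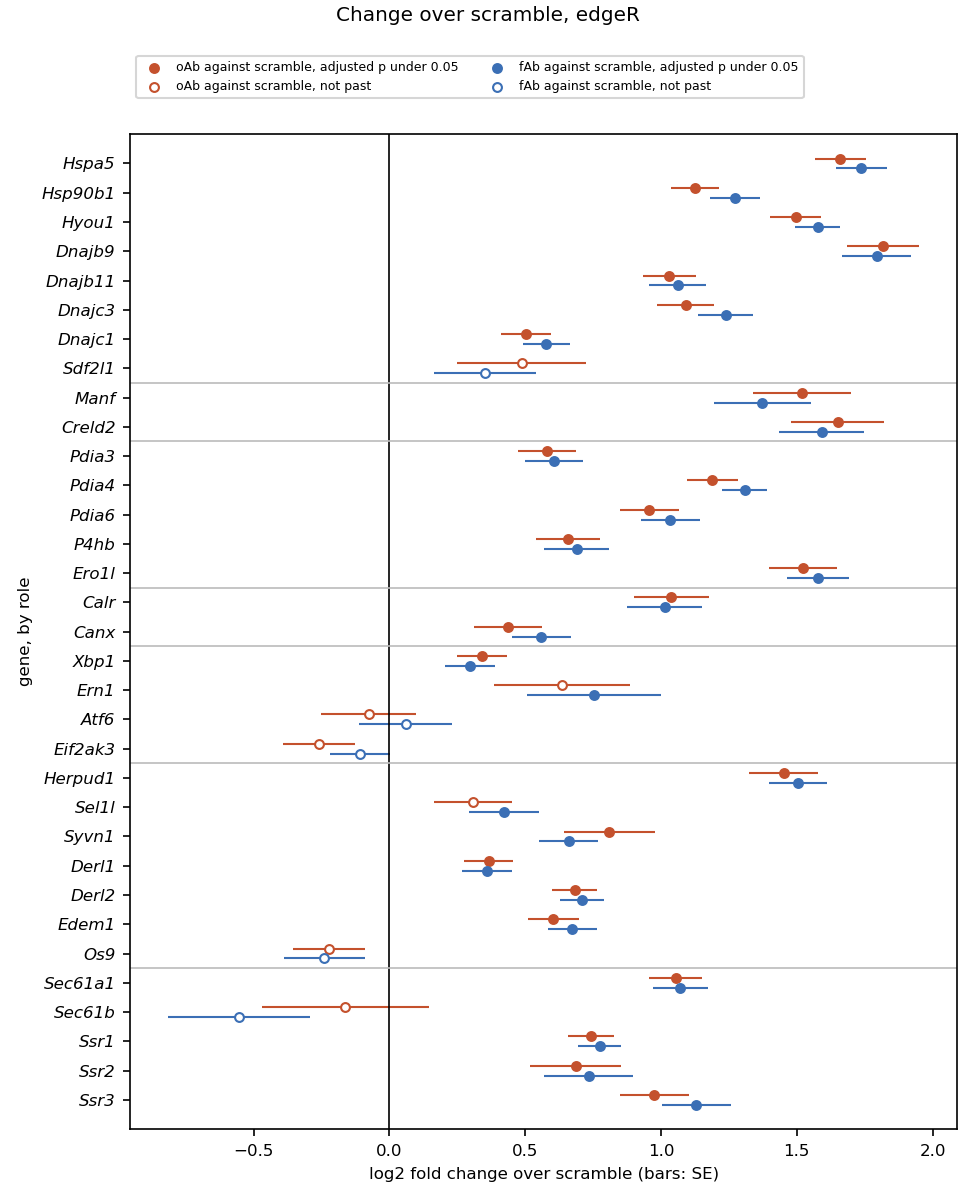
Log2 fold change over scramble (horizontal axis) of the 33 tested genes by role, for oAb (red) above fAb (blue) in each line; bars are 1 SE and filled points have an edgeR adjusted p under 0.05. Dnajb9, Hspa5, Creld2, Hyou1, Ero1l, Manf and Herpud1 lie farthest to the right, and Eif2ak3, Os9 and Sec61b lie left of 0 in both comparisons without passing.

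Of the sensors and their factor Xbp1, 1 of 4 rose with oAb and 2 of 4 with fAb. Xbp1 had 198, 203, 202 and 192 normalised CPM in oAb and 187, 193, 187 and 184 in fAb, against 151, 153, 181 and 144 in scramble libraries. No library overlapped, though scramble library 3 came within a few CPM of the lowest fAb library, and the rise was 1.27-fold with oAb (edgeR adjusted p = 0.0121) and 1.23-fold with fAb (0.022). Counts per gene do not separate spliced from unspliced Xbp1, so IRE1 activity was not analysed here. The Xbp1 call is a small one: with upper quartile scaling the log2 fold change was 0.17 with oAb (edgeR adjusted p = 0.166) and 0.11 with fAb (0.36). With oAb it also did not pass within the Timm23 set (0.34, edgeR adjusted p = 0.126). With fAb it did not pass with the library set as a term (0.37, edgeR adjusted p = 0.0989) or without any 1 of scramble libraries 1, 2 and 4 and fAb library 2 (0.26 to 0.27, 0.056 to 0.0695).

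Ern1, which encodes IRE1, had 79.5, 66.7, 72.4 and 70.8 normalised CPM in oAb and 77.3, 80.4, 79.5 and 69.1 in fAb, against 62.2, 49.1, 23.3 and 51.9 in scramble libraries. All treated libraries lay above all scramble libraries, and scramble library 3 was far below the other scramble libraries. The log2 fold change was 0.63 ± 0.25 with oAb, which did not pass (edgeR adjusted p = 0.0573), and 0.75 ± 0.25 with fAb, which did (0.0265). Without scramble library 3 the oAb value was smaller, 0.41, and passed (edgeR adjusted p = 0.0028). It passed without scramble library 1 as well (0.81, edgeR adjusted p = 0.0246). With all libraries kept, it passed with DESeq2 size factors (0.66, edgeR adjusted p = 0.0455) and all 12 libraries in 1 fit (0.63, edgeR adjusted p = 0.0226). It also passed by DESeq2 (0.67, DESeq2 adjusted p = 0.0212) and limma voom (0.71, voom adjusted p = 0.0458). The call with oAb thus depends on the method. The call with fAb was lost with the library set as a term, where the value was 0.36 (edgeR adjusted p = 0.495), with upper quartile scaling (0.57, 0.0719), and without any 1 of scramble library 2 and fAb libraries 1, 2 and 3 (0.71 to 0.76, 0.0564 to 0.0692). Within the Gm10273 set, where scramble is 1 library, Ern1 was at 0.24 with oAb (edgeR adjusted p = 0.017) and 0.36 with fAb (0.0157). Atf6 had 134, 131, 147 and 138 normalised CPM in oAb and 146, 148, 146 and 149 in fAb, against 170, 152, 92.3 and 167 in scramble libraries. Scramble library 3 lay below all treated libraries and the other 3 scramble libraries above them. Its log2 fold change was -0.08 ± 0.18 with oAb (edgeR adjusted p = 0.737) and 0.06 ± 0.17 with fAb (0.785), and without scramble library 3 it was -0.24 with oAb, which passed (edgeR adjusted p = 0.00849), and -0.10 with fAb, which did not (0.107). Eif2ak3, which encodes PERK, had 21.1, 20.7, 18.1 and 16.5 normalised CPM in oAb and 21.5, 21.05, 19.8 and 20.3 in fAb, against 25.5, 24.2, 18.5 and 23.2 in scramble libraries. Only scramble library 3 overlapped the treated libraries. Eif2ak3 did not pass with oAb (log2 fold change -0.26 ± 0.13, edgeR adjusted p = 0.132) or fAb (-0.11 ± 0.11, 0.432), and without scramble library 3 it passed as lower in both (-0.35 with oAb, edgeR adjusted p = 0.012, and -0.19 with fAb, 0.0396).

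ERAD genes rose in 5 of 7 tested with oAb and 6 of 7 with fAb. Herpud1, a membrane protein that gathers the ERAD complex, had the largest change of these. It had 97.0, 104, 77.0 and 83.4 normalised CPM in oAb and 95.4, 97.9, 84.2 and 88.3 in fAb, against 30.7, 31.2, 38.5 and 32.0 in scramble libraries. The groups did not overlap, and the log2 fold change was 1.45 ± 0.13 with oAb (edgeR adjusted p = 1.18e-05) and 1.5 ± 0.11 with fAb (3.34e-06). Derl2, a channel component, had 62.4, 67.7, 65.1 and 66.1 normalised CPM in oAb and 64.1, 67.3, 66.0 and 62.7 in fAb, against 38.8, 40.3, 43.6 and 40.4 in scramble libraries, 1.60-fold higher with oAb and 1.64-fold with fAb. Edem1, which takes part in selecting glycoproteins for degradation, rose 1.52-fold with oAb and 1.59-fold with fAb, and Derl1, the relative of Derl2, 1.29-fold with oAb and 1.28-fold with fAb.

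Syvn1, the ubiquitin ligase HRD1 of ERAD, had 88.1, 90.5, 55.4 and 67.7 normalised CPM in oAb and 73.6, 61.8, 64.8 and 65.6 in fAb, against 36.3, 43.6, 46.9 and 45.8 in scramble libraries. It rose 1.75-fold with oAb and 1.58-fold with fAb. The 2 oAb libraries of the Timm23 set were the highest of all, and the log2 fold change with oAb was 0.98 within the Timm23 set and 0.80 within the Gm10273 set, both past the threshold, though the Gm10273 set holds 1 scramble library, which is assumed to vary like the others. Sel1l, the membrane partner of Syvn1, had 143, 139, 161 and 167 normalised CPM in oAb and 157, 159, 163 and 165 in fAb, against 134, 129.7, 90.2 and 139 in scramble libraries. It passed with fAb (1.34-fold, edgeR adjusted p = 0.0201) and not with oAb (1.24-fold, 0.0992), and the difference between fAb and oAb did not pass either (edgeR adjusted p = 0.549). With all 12 libraries in 1 fit, Sel1l did pass with oAb (log2 fold change 0.30, edgeR adjusted p = 0.0447). The call with fAb was lost with the library set as a term (log2 fold change 0.32, edgeR adjusted p = 0.291), with upper quartile scaling (0.24, 0.135) and without fAb library 2 (0.41, 0.0534). Within the Gm10273 set, with its 1 scramble library, Sel1l passed with oAb (0.33, edgeR adjusted p = 0.00232) and with fAb (0.32, 0.00357). The lectin Os9, which hands glycoproteins to the ligase complex, had 81.9, 82.4, 87.8 and 86.0 normalised CPM in oAb and 78.9, 69.6, 88.8 and 89.7 in fAb, against 80.7, 87.6, 124 and 103 in scramble libraries. The groups overlapped, and Os9 did not pass (log2 fold change -0.22 ± 0.13 with oAb, edgeR adjusted p = 0.191, and -0.24 ± 0.15 with fAb, 0.202).

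Translocon genes rose in 4 of 5 with each preparation. Sec61a1, the pore-forming subunit, had 518, 514, 530.1 and 581 normalised CPM in oAb and 508, 476, 582 and 555 in fAb, against 239.8, 239.6, 279 and 277 in scramble libraries, a rise of 2.08-fold with oAb (edgeR adjusted p = 1.5e-05) and 2.10-fold with fAb (1.92e-05). Ssr1, Ssr2 and Ssr3 encode subunits of the translocon-associated protein complex. Ssr1 had 515, 490.2, 504 and 489 normalised CPM in oAb and 481, 499, 508 and 507 in fAb, against 292, 301, 282 and 322 in scramble libraries, 1.67-fold higher with oAb and 1.71-fold with fAb, with no overlap. Ssr3 rose 1.97-fold with oAb and 2.19-fold with fAb, and Ssr2 1.61-fold with oAb and 1.66-fold with fAb.

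Sec61b, the small subunit of the same channel, was the exception. It had 81.2, 80.8, 43.4 and 53.5 normalised CPM in oAb and 52.1, 44.1, 48.3 and 48.7 in fAb, against 40.98, 66.4, 113 and 70.3 in scramble libraries. The level followed the library set: oAb libraries 1 and 2 and scramble libraries 2, 3 and 4, of the Timm23 set, all lay above every library of the Gm10273 set. The log2 fold change was -0.16 ± 0.31 with oAb (edgeR adjusted p = 0.681) and -0.56 ± 0.26 with fAb (0.0979). Without scramble library 1, the only scramble library of the Gm10273 set, it was -0.77 with fAb and passed as lower (edgeR adjusted p = 0.0071). In a fit that includes the set it was 0.06 with oAb and 0.29 with fAb and did not pass, and within the Gm10273 set, where scramble is 1 library, it was 0.28 with oAb (edgeR adjusted p = 0.0591) and 0.30 with fAb (0.0375). Of the 50-base words of Sec61b, 17.4% also occur in other genes, most in Gm10320, so its counts are uncertain. All fAb libraries are in the Gm10273 set, and 3 of 4 scramble libraries are not, so for fAb the set and the treatment rest on scramble library 1 to be told apart.

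**Figure D3:**
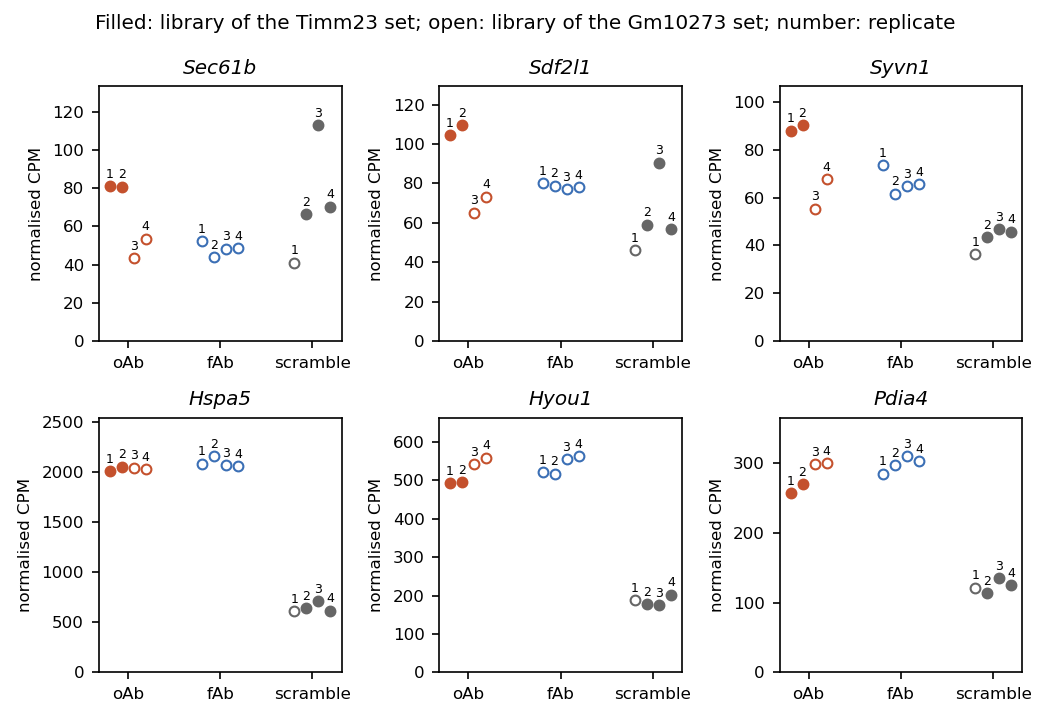
Normalised CPM (vertical axis, from 0) of 6 genes in each library of oAb, fAb and scramble; filled points are libraries of the Timm23 set, open points those of the Gm10273 set, and numbers are replicates. In Sec61b, Sdf2l1 and Syvn1 the 2 filled oAb points lie above the 2 open ones, and in Hspa5, Hyou1 and Pdia4 all treated points lie far above all scramble points in either set; the genes were picked after their values were seen.

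Most of the rises were also seen within the library sets. Within the Timm23 set (2 oAb and 3 scramble libraries) 21 of the 33 genes rose and 0 fell with oAb, and with the set as a term 27 rose and 0 fell. With fAb and the set as a term 25 rose and 0 fell. Among all genes tested within the Timm23 set, 1976 of 11224 rose and 1816 fell with oAb. With the set as a term, 2787 of all 11033 genes rose and 2947 fell with oAb. With fAb and that term 2020 of all 11074 genes rose and 1824 fell. The genes that lost their call within the Timm23 set with oAb were Canx, Xbp1, Pdia3 (0.54, edgeR adjusted p = 0.0527), Derl1 (0.37, 0.0611) and Ssr2 (0.53, 0.15). With fAb and the set as a term Canx, Xbp1, Ern1 and Sel1l lost theirs and Sdf2l1 gained one. Within the Gm10273 set, with its 1 scramble library, Atf6 and Eif2ak3 passed as lower with oAb (-0.22, edgeR adjusted p = 0.0263, and -0.52, 0.00212). Hspa5 had a log2 fold change of 1.64 with oAb within the Timm23 set and 1.78 within the Gm10273 set, and of 1.84 with fAb within the Gm10273 set.

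Scramble library 3 differed from the other 3 scramble libraries in a way that ran with gene length. It lay above all 3 in 19 of the 33 genes and below all 3 in 13. Its ratio to their mean was lowest in Ern1, at 0.429, and highest in Sec61b, at 1.91. Across the 33 genes the ratio went down with the exon length of the gene (Spearman rho -0.741, and Pearson r -0.721 on log2 scales), which is a description of 1 library, since all points share it, and was looked at after the values were seen. Without this library 28 genes rose and 2 fell (Atf6 and Eif2ak3) with oAb, and 29 rose and 1 fell (Eif2ak3) with fAb. Among all genes tested without it, 3503 of 11148 rose and 3671 fell with oAb. With fAb 3819 of 11169 rose and 3779 fell.

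**Figure D4:**
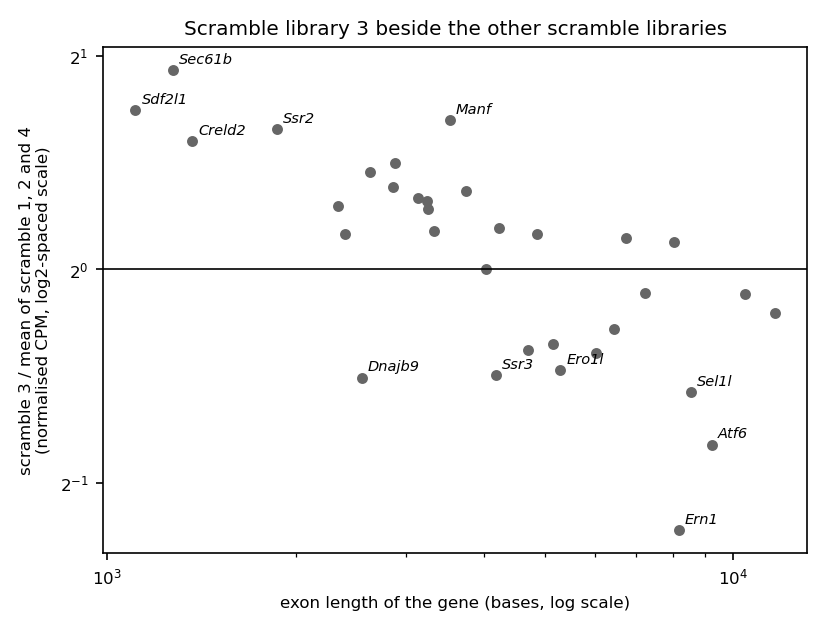
Ratio of scramble library 3 to the mean of scramble libraries 1, 2 and 4 in normalised CPM (vertical log axis) against exon length in bases (horizontal log axis), 1 point per tested gene. Short genes such as Sec61b and Sdf2l1 lie above 1 and long ones such as Ern1, Atf6 and Sel1l below it. Exceptions include Dnajb9 (2549 bases), at 0.704, and the longer Derl2 (8049 bases) and Sec61a1 (6732 bases), at 1.09 and 1.11.

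Levels were compared between genes per length, in TPM, a unit scaled for gene length and for the library's total. The 34 genes summed to 10224 to 10517.5 TPM in oAb and 10514 to 11643 TPM in fAb, against 5835 to 6551 TPM in scramble libraries. Calr was the most abundant in every group, at 1729 ± 39.1 TPM in oAb, 1761 ± 69.4 in fAb and 943 ± 32.5 in scramble (SD, n = 4 each). In oAb P4hb (1282 ± 30.3 TPM) and Hspa5 (1281 ± 20.5) came next and did not differ beyond their spread, nor did Pdia3 (898 ± 18.3) and Hsp90b1 (898 ± 16.8) after them. In fAb Hspa5 (1399 ± 88.0 TPM) and P4hb (1358 ± 16.3) were likewise within their spread. In scramble the order was Calr, P4hb (914 ± 25.3 TPM), Pdia3 (678 ± 21.7), Hsp90b1 (471 ± 74.7) and Hspa5 (459 ± 36.6), where the first pair and the last pair were within their spread. Hspa5 made up 12.3% to 12.5% of the TPM of the 34 genes in oAb and 12.5% to 12.9% in fAb, against 7.03% to 7.68% in scramble libraries. At the low end, Eif2ak3 (8.44 ± 1.12 TPM in oAb, 9.68 ± 0.75 in fAb, 11.7 ± 2.92 in scramble) and Dnajc1 (8.51 ± 0.31 TPM in oAb, 9.27 ± 0.36 in fAb, 6.90 ± 1.36 in scramble) stood above Derl3 alone, which was at 0.343 ± 0.266 TPM in oAb, 0.401 ± 0.244 in fAb and 0.691 ± 0.134 in scramble.

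**Figure D5:**
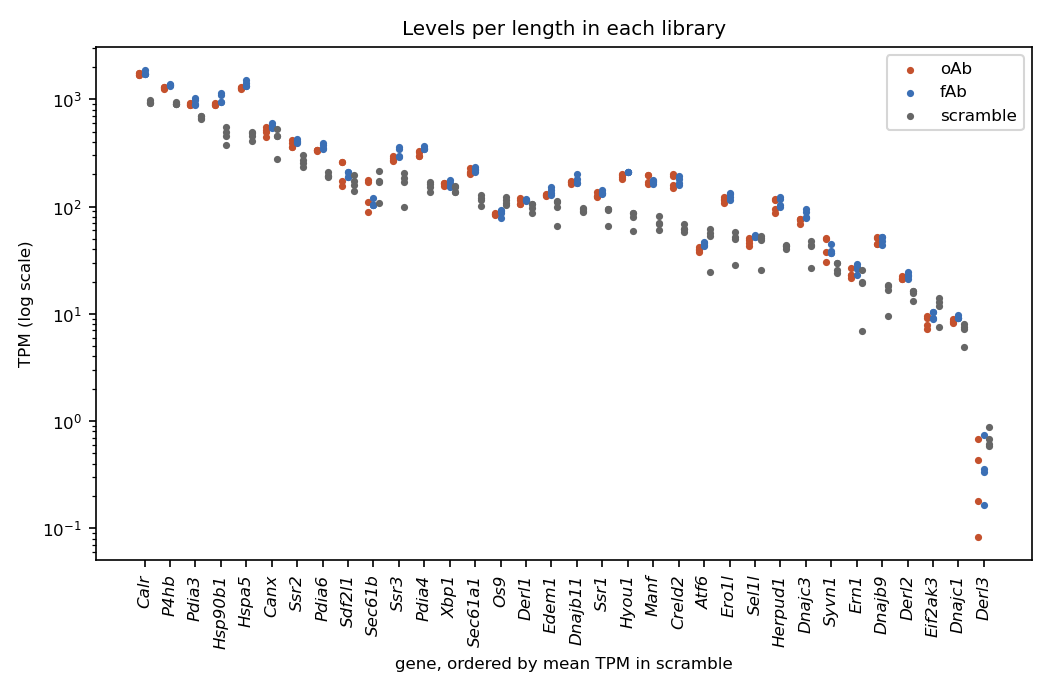
TPM (vertical log axis) of each of the 34 genes in every library, ordered by mean TPM in scramble; oAb, fAb and scramble points stand side by side for each gene. Calr is highest in all groups and Derl3 lies far below the rest, at under 1 TPM.

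The ERSE match can be set beside the changes. Of the 9 genes with a match, 8 were tested (all but Derl3), and all 8 rose with oAb (median log2 fold change 1.06, range 0.44 to 1.66) and with fAb (median 1.14, range 0.56 to 1.74). Of 19 tested genes with a window and no ERSE match, which include Herpud1 and Dnajb11 with ERSE-II, 13 rose with oAb (median 0.63, range -0.26 to 1.82) and 15 with fAb (median 0.69, range -0.56 to 1.79). The ranges overlap widely: Dnajb9, among the genes with the largest rises, has no match in its window, and Canx, with one, had a modest rise. These counts describe the genes chosen here and were not tested.

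fAb and oAb did not differ past the threshold in any of these genes. Of 10878 genes tested in fAb against oAb, 0 passed by edgeR (0%, with 1391 at an unadjusted p under 0.05), and DESeq2 called 16. Among the 33 genes 0 passed, 1 had an unadjusted p under 0.05, and the median log2 fold change was 0.02. That gene was Manf, lower in fAb than in oAb (log2 fold change -0.18 ± 0.07, edgeR adjusted p = 0.375), and it was -0.05 within the Gm10273 set. The differences of the 33 genes ran from -0.42 ± 0.20 in Sec61b (edgeR adjusted p = 0.409) to 0.12 ± 0.06 in Ssr3 (0.396), and Sec61b was at 0.01 within the Gm10273 set. These genes were chosen after their values were seen. Hspa5 was the 1 gene of the 33 with all fAb libraries above all oAb libraries, a pattern that 3.05% of all genes showed, and 0 had them all below (3.25% of all genes). Its difference was 0.04 ± 0.05 on the log2 scale (edgeR adjusted p = 0.709). The 95% intervals of 30 of the 33 genes lay within 0.5 of 0 on the log2 scale. Those of Sdf2l1, Syvn1 and Sec61b reached down to -0.54, -0.53 and -0.89, so differences of up to these sizes were not excluded in them.

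The 34 genes are a part of the ER machinery, and 8 wider lists of its other genes were less uniform. Their counts are to be read beside the share of all genes tested that rose (25.2% with oAb and 27.6% with fAb) or fell (27.0% with oAb and 28.8% with fAb). The list around PERK and its stress-response factors had 11 tested genes, of which 8 rose and 1 fell with each preparation. Atf4, the factor whose translation PERK signalling favours, had 376, 379, 308 and 321 normalised CPM in oAb and 339.7, 336, 339 and 323 in fAb, against 84.7, 81.9, 74.8 and 62.5 in scramble libraries. Its groups did not overlap, with a log2 fold change of 2.19 ± 0.13 with oAb (edgeR adjusted p = 7.44e-07) and 2.18 ± 0.11 with fAb (2.33e-07). Atf3, a transcription factor induced downstream of ATF4, rose by 1.89 ± 0.09 with oAb and 1.93 ± 0.08 with fAb on the log2 scale. Bbc3, which encodes the cell death protein PUMA, fell with oAb (-2.07 ± 0.63, edgeR adjusted p = 0.0203) and fAb (-3.14 ± 0.40, 0.000148), and scramble library 1, of the Gm10273 set, was at 7.55 CPM beside 20.3 to 29.7 CPM in the other 3. Without scramble library 3 the fall with oAb was -1.85 and did not pass (edgeR adjusted p = 0.0851), nor did it with the replicate block (-2.26, 0.0595). The oAb libraries also split by set, at 8.15 and 8.73 CPM in the Timm23 set and 1.51 and 1.53 CPM in the Gm10273 set. A fit that includes the set gave a smaller change, -1.80 with oAb (edgeR adjusted p = 9.28e-05) and -1.66 with fAb (0.000739), and both passed.

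In the other lists rises and falls were mixed, with 1 exception. Outside the 5 translocon genes above, 11 of 20 genes of the translocon, signal recognition and signal peptidase rose with oAb and 12 with fAb, and 0 fell. Srpr, the receptor of the signal recognition particle, had a log2 fold change of 1.40 ± 0.08 with oAb and 1.43 ± 0.07 with fAb. Of 29 further ERAD genes 12 rose and 7 fell with oAb and 12 rose and 6 fell with fAb, where the share of falls was near that of all genes with oAb. The log2 fold change of Selenos, a membrane partner of the p97 ATPase, was 1.17 ± 0.13 with oAb and 1.22 ± 0.14 with fAb, and that of Svip, an inhibitor of ERAD, was -1.69 ± 0.15 with oAb and -1.58 ± 0.12 with fAb. Of 18 further isomerases and oxidases 9 rose and 4 fell with each preparation, among them Txndc11 (log2 fold change 1.01 ± 0.08 with oAb and 1.06 ± 0.08 with fAb) and Erp29 (-1.13 ± 0.18 with oAb and -1.19 ± 0.17 with fAb). Of 12 regulators of the ATF6 and IRE1 branches 5 rose and 3 fell with each. Wfs1, an ER membrane protein mutated in Wolfram syndrome, had a log2 fold change of 2.19 ± 0.16 with oAb and 1.95 ± 0.19 with fAb, and Mbtps1, the site-1 protease that cleaves ATF6, one of -0.42 ± 0.08 with oAb and -0.36 ± 0.07 with fAb.

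Of 19 genes of N-glycosylation and the calnexin cycle 6 rose and 2 fell with each preparation, a share of rises near that of all genes. Stt3a, a catalytic subunit of oligosaccharyltransferase, had a log2 fold change of 0.70 ± 0.10 with oAb and 0.83 ± 0.08 with fAb, and Uggt2, a relative of the folding sensor UGGT1, one of -1.44 ± 0.35 with oAb and -0.92 ± 0.35 with fAb. Uggt2 was near the floor, at 0.20 to 0.51 normalised CPM in oAb, 0.26 to 0.75 in fAb and 0.62 to 1.31 in scramble libraries. Its fall with oAb was lost within the Timm23 set (-1.56, edgeR adjusted p = 0.0518). The fall of Uggt2 with fAb is barely past the threshold (edgeR adjusted p = 0.0494) and is lost with the replicate block (-0.92, 0.052). It is also lost without any 1 of scramble libraries 1, 2 and 3 or fAb libraries 2, 3 and 4. Of 21 other luminal chaperones and cofactors 8 rose and 6 fell with oAb and 8 rose and 7 fell with fAb. Rcn1, a calcium-binding protein of the lumen, was at 1.83 ± 0.12 with oAb and 1.76 ± 0.10 with fAb on the log2 scale, and Cnpy3, a cochaperone that assists the folding of Toll-like receptors, at -0.66 ± 0.17 with oAb and -0.81 ± 0.18 with fAb. With the library set as a term Cnpy3 was at -0.43 with fAb and did not pass (edgeR adjusted p = 0.195), while within the Gm10273 set, where scramble is 1 library, it was at -0.42 with fAb and passed (0.0102). Within the Timm23 set it was at -0.75 with oAb and did not pass (edgeR adjusted p = 0.0534). Of 8 genes of the ER calcium store 3 rose and 3 fell with each. The pump Atp2a2 (SERCA2) was at 1.20 ± 0.14 with oAb and 1.32 ± 0.13 with fAb on the log2 scale, and the store sensor Stim1 at -0.86 ± 0.10 with oAb and -0.86 ± 0.08 with fAb. All of these named genes passed the edgeR threshold in both comparisons.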

How the data were processed

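Whole-number counts per gene were deposited by the authors in 2 tables that share the 4 scramble libraries, with TPM and RPKM made by the authors beside them, per the file headers. Reads were placed on mm10, per the submitters' processing notes. The library kit keeps strand, per the labels' protocols. The name of the aligner or counter, or any use of strand, was not given in the sources used here. Samples were grouped by their labels.

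For each comparison the counts of its 8 libraries went into edgeR 4.0.16 (R 4.3.3) with these settings (filterByExpr with a minimum count of 10, TMM scaling, robust quasi-likelihood F test, two-sided, Benjamini-Hochberg adjustment over all tested genes, threshold 0.05). Normalised CPM are counts scaled by TMM over all 12 libraries. TPM were used as deposited to set genes side by side, and RPKM as deposited as an alternative. SE is the log2 fold change over the root of F. The procedure was tested on simulated data with known fold changes. In each simulation 200 genes were changed, and libraries were drawn independently, without library sets. In the data 52.2% of tested genes passed with oAb and 56.3% with fAb over scramble. The shares below describe the simulations and need not hold for these libraries. With oAb over scramble it recovered 19.3% of 1.5-fold, 76.4% of 2-fold and 97.2% of 4-fold changes. With fAb over scramble these shares were 29.6%, 75.0% and 94.3%. A gene that did not pass may thus still have changed by 1.5-fold. Between the preparations the shares were 68.1%, 91.4% and 95.1%. In the simulations, calls that were false made up 4.93% with oAb and 5.19% with fAb over scramble. Between the preparations they made up 7.65%. The 34 genes, the wider lists and the motifs were chosen with earlier results of these data known. Genes named from the wider lists are each among the 2 higher and 2 lower with the smallest adjusted p in a comparison. Not every gene that met this rule is named.

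Alternatives were other scalings, filters and tests (DESeq2 1.42.0, limma 3.58.1 voom), a replicate block, all 12 libraries in 1 fit, the library sets, and leaving out each library. Same-numbered libraries deviated together in fAb against scramble (correlations 0.146 to 0.286) but not in oAb against scramble (-0.284 to 0.0692) or fAb against oAb (-0.287 to 0.332). However, fAb libraries 1, 2 and 4 each correlated more closely with a scramble library of another number (0.312, 0.539 and 0.366). The numbers were therefore not taken to pair libraries, and the main fits are unpaired. No library was a copy of another: chi-square per degree of freedom within groups was at least 2.91. All 34 genes have the same start and end in GENCODE M21. Of their exon bases, 5.38% in Hsp90b1 overlap another gene on the same strand, and 12.8% in Ssr2, 10.3% in Hsp90b1, 8.85% in Manf, 8.16% in Sec61a1 and 8.05% in Eif2ak3 overlap one on the other strand, so these counts are less certain.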

Additional observations from a re-analysis of the deposited data

Results flagged for a closer look

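Of 102 sets of 4 libraries (34 genes in 3 groups), 7 held a library that stood far from the others of its group, where chance would give about 1 in 20. In 3 of them it was scramble library 3, which was higher than the other scramble libraries for Pdia3 (841 normalised CPM), Pdia6 (294) and Herpud1 (38.5), and still below every treated library. In fAb, library 4 was the lowest for Dnajb9 (40.9 normalised CPM) and Ero1l (225), library 2 the highest for Dnajb11 (221) and library 1 the lowest for Calr (1711). In these 4 genes every fAb library stayed above every scramble library.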

How the results depend on the processing

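Of the genes that rose, 21 of 26 passed under every alternative with oAb (not Canx, Derl1, Pdia3, Ssr2 and Xbp1) and 23 of 28 with fAb (not Canx, Derl1, Ern1, Sel1l and Xbp1), and none of them changed direction. The number that rose ranged over the settings from 21 to 29 with oAb and from 24 to 30 with fAb. Upper quartile scaling, which moved the median of all genes to -0.24 with oAb and -0.23 with fAb, gave 2 falls with oAb (Eif2ak3 and Os9) and 3 with fAb (Eif2ak3, Os9 and Sec61b). The Gm10273 set alone gave 2 falls with oAb. Leaving out a library gave 0 to 2 falls with oAb and 0 to 1 with fAb. Genes past the threshold numbered 3792 within the Timm23 set with oAb, where 5 libraries were left, and 3844 with the set as a term with fAb, where scramble library 1 alone separates the set from the treatment; with oAb the same term left 5734. The cause was not tested. In fAb against oAb DESeq2 called 16 genes, 0 of them among the 33.

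Some genes that did not pass changed sign, and the cause was not tested. With oAb, Sec61b was at 0.062 with the set as a term, 0.28 within the Gm10273 set and -0.36 to 0.13 with a library left out, Os9 at 0.15 within the Gm10273 set, and Atf6 at -0.24 to 0.0069 with a library left out. With fAb, Atf6 was at -0.13 with upper quartile scaling, -0.15 with the set as a term, -0.14 within the Gm10273 set and -0.10 to 0.14 with a library left out; Os9 was at 0.072 and Sec61b at 0.29 with the set as a term, and they were at 0.080 and 0.30 within the Gm10273 set. In fAb against oAb Sel1l was at -0.020 and -0.011 in these fits and Sec61b at 0.0095 within the Gm10273 set. Over all 33 genes in fAb against oAb, 71 of 594 values under 18 other settings had another sign than the first, in 19 genes, and 0 passed the threshold.

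With the replicate number as a block, 26 genes rose with oAb and 28 with fAb, as without it, and 5081 and 6292 of all genes passed; the block changed no call of the 34 genes. Of 16 genes named from the wider lists, tried with the same alternatives after their values were seen, none changed sign, and Bbc3, Cnpy3, Mbtps1 and Uggt2 lost a call under at least 1 of them. The Timm23 set holds no fAb library, so fAb could not be fitted within it, and within the Gm10273 set scramble is 1 library that is assumed to vary like the others. At 1 to 10 counts per library Derl3 is too low for a comparison.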
